A study of Mus musculus with 16 samples.

Results

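The genes of the natriuretic peptide system were followed across 16 mouse heart libraries. They were chosen by gene symbol and comprise the peptide precursors Nppa and Nppb, the activating proteases Corin and Furin, and the receptors Npr1, Npr2 and Npr3, which are 7 of the 55278 gene symbols in the tables. All 7 had counts in each of the 16 libraries and passed the filter on low counts. Atrial natriuretic peptide (ANP, from Nppa) and B-type natriuretic peptide (BNP, from Nppb) are hormones that heart muscle releases when it is stretched, and they lower blood pressure and blood volume. Corin, a membrane protease of cardiomyocytes, cuts the ANP precursor, and furin, a protease of the Golgi, can cut the BNP precursor. Npr1 and Npr2 are receptors that make cyclic GMP (cGMP) inside the cell, whereas Npr3 takes the peptides up and clears them.

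The mice were male C57BL/6J aged 8 to 12 weeks. They carried floxed Ppara alleles (Ppara-flox) or lacked PPARα, a nuclear receptor of fatty acid metabolism, in cardiomyocytes (PPARα-deficient). Each genotype received PBS or 5 mg/kg of the bacterial endotoxin LPS into the peritoneum, and hearts were collected after 12 h, with 4 mice in each of the 4 groups. The series was designed around the part of PPARα in septic cardiomyopathy. The labels give no name for the Cre driver, and no group had Cre alone, so in the genotype comparisons loss of PPARα and presence of Cre cannot be told apart. Levels below are CPM, counts per 1000000 counts of the scaled library, given as mean ± SD over 4 libraries. Fold changes are log2 values ± standard error (SE) from the edgeR quasi-likelihood fit to all 16 libraries, and "called" means an adjusted p under 0.05 over the 18713 genes tested.

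Library totals ran from 65569134 to 75436023 estimated counts, with 20762 to 21506 symbols detected. Ppara stood at 37.4 to 59.3 CPM in Ppara-flox and 11.4 to 17.6 CPM in PPARα-deficient hearts after PBS (log2 fold change -1.79 ± 0.28, adjusted p = 0.00287). After LPS its ranges of 7.23 to 14.7 and 4.25 to 11.9 CPM overlapped (adjusted p = 0.651). Esr1 was at most 0.516 CPM in every Ppara-flox library, at 2859 to 3201 CPM in PPARα-deficient hearts after PBS and at 28.3 to 152 CPM in those after LPS. The 2 PPARα-deficient groups thus differ in Esr1 as well as in treatment. The LPS effect in that genotype, both genotype comparisons and the interaction all contrast groups that differ in it. The reason for the Esr1 levels was not tested. The islet genes Ins1, Ins2, Gcg and Iapp, which matter because a label speaks of islets, were at 0 in all 16 libraries. Of 8 atrial marker genes, Sln, Myl7, Bmp10 and Mybphl were each under 1 CPM in all 16 libraries, whereas 4 ventricular markers summed to 4888 to 7601 CPM. The PBS libraries carry 2 ranges of numbers in their file headers (957 to 971 for replicates 1 and 2, 1069 to 1075 for replicates 3 and 4), and all LPS libraries carry higher numbers (1739 to 1769). Whatever these numbers stand for therefore cannot be told apart from LPS.

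Nppa (ENSMUSG00000041616.9) and Nppb (ENSMUSG00000029019.8) are neighbours on mouse chromosome 4 in the same orientation, with start sites 14.9 kb apart. On GRCm38 the annotated gene spans are chr4:148000722-148002079 for Nppa and chr4:147985788-147987205 for Nppb, both on the plus strand. The stretches upstream of them are shown because the 2 peptide genes share a locus, and because Gata4 and Tead1, factors that bind motifs marked here, are described below. Sequences are from RefSeq on GRCm38.p6, 5′ to 3′ on the plus strand, with matches in capitals to the GATA motif (GATAA or its complement TTATC), the M-CAT element bound by TEAD factors (CATTCC or GGAATG) and the TATA box (TATAAA).
Nppa upstream stretch, chr4:148000472-148000721: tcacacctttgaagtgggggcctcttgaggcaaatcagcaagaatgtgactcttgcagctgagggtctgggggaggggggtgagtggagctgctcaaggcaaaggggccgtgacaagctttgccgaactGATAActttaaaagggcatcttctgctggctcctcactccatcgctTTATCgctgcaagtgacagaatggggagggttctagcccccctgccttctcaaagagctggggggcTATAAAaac
Nppb upstream stretch, chr4:147985650-147985787: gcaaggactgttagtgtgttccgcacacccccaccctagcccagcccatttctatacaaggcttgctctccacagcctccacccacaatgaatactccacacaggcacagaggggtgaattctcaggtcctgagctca
Nppb motif stretch, chr4:147985795-147985821: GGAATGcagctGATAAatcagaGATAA
The Nppa stretch ends at the base before its start site. The Nppb stretch ends 112 bases before the RefSeq start, where the longer GENCODE transcript begins, and the motif stretch lies between both starts.

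Of 8 motifs searched on both strands in the 300 bases from 250 before to 50 after each RefSeq start, the GATA motif matched 2 times in each gene. These matches begin 121 and 75 bases before the Nppa start and 94 and 83 bases before the Nppb start, and 25.4% of 32851 such windows of all genes hold at least 1. The M-CAT element matched 1 time in Nppb, 105 bases before its start, and not in Nppa (14.7% of windows). TATAAA begins 9 bases before the Nppa start and 31 bases before the Nppb start (13.6% of windows). The NKX2-5 element TNAAGTG matched 1 time in Nppa and 0 times in Nppb (11.5%). No match in either window was found to the AP-1 element TGANTCA (7.81% of windows), the CArG box (1.63%), the NF-kB element (4.51%) or the direct-repeat element of PPAR receptors (0.0396%). These matches describe letters only, and none of these motifs overlaps another in the stretches printed.

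Per kb of annotated exon the 7 genes kept nearly the same order in all groups. In Ppara-flox hearts after PBS, Nppb led with 252 ± 82.5 CPM per kb (SD, n = 4), followed by Nppa with 150 ± 31.2 CPM per kb. Corin followed at 43.7 ± 5.70, Furin at 18.1 ± 1.18, Npr2 at 12.5 ± 0.918, Npr1 at 7.47 ± 0.268 and Npr3 at 1.14 ± 0.188 CPM per kb, and no 2 neighbours in this order overlapped. The peptide transcripts were thus far more abundant per length than any of the receptors. From Corin downwards this order held in the other 3 groups, each time without overlap between neighbours. At the top, Nppa and Nppb overlapped in the other 3 groups, and in Ppara-flox hearts after LPS the ranges of Nppb and Corin overlapped too.

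**Figure D1:**
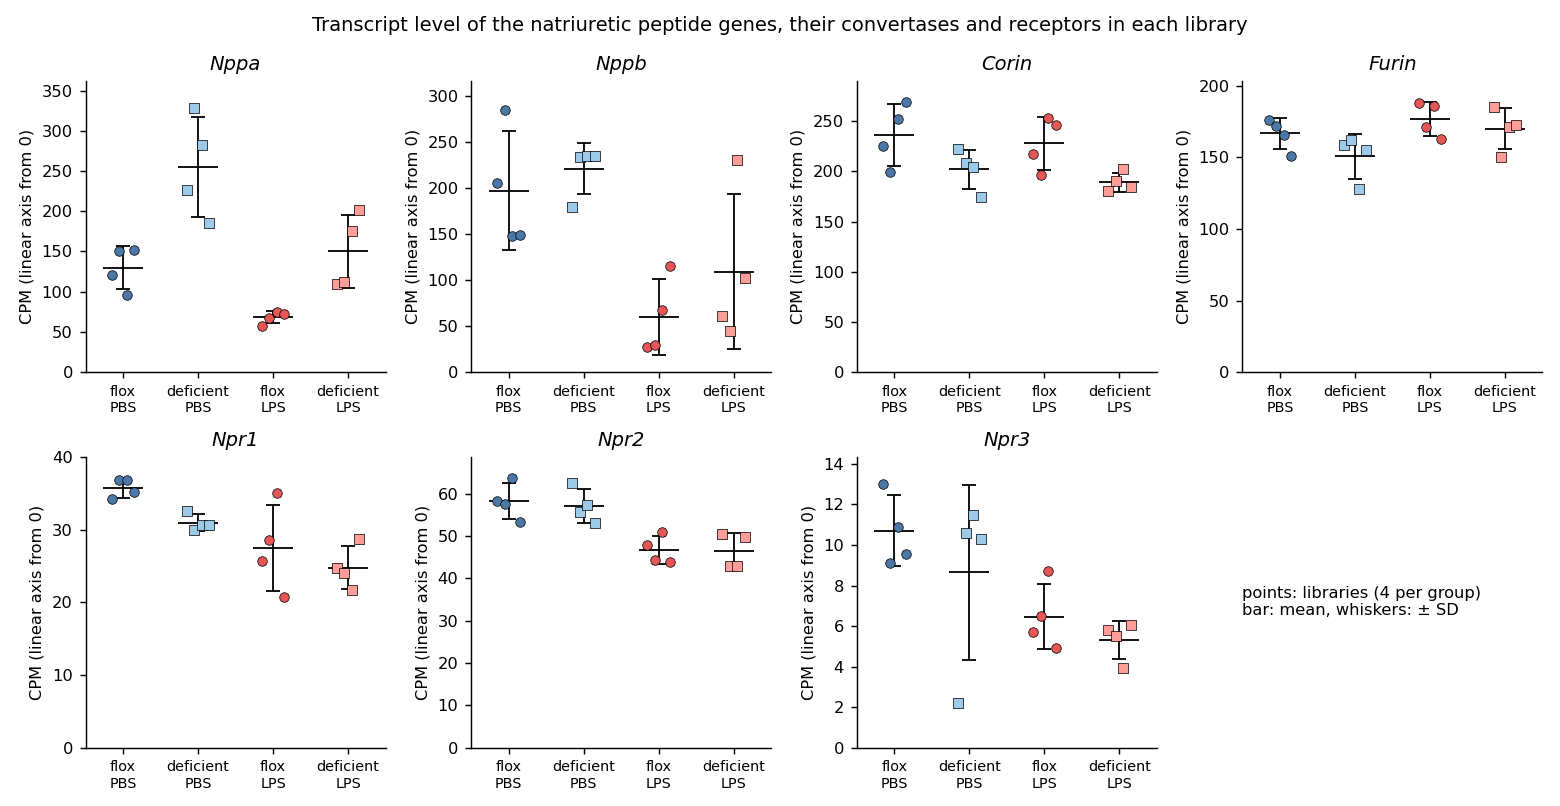
Transcript level of each of the 7 genes in CPM (vertical axis, linear from 0) in the 4 libraries of each group (points), with mean (bar) and SD (whiskers). Nppa is higher in PPARα-deficient than in Ppara-flox libraries under both treatments without overlap, Corin and Furin stay within narrow ranges, and Nppb spreads widely after LPS.

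Nppa, the ANP precursor gene, was lower after LPS in both genotypes and higher in PPARα-deficient hearts. After PBS its level was 121, 151, 95.8 and 152 CPM in the 4 Ppara-flox hearts and 226, 328, 283 and 185 CPM in the 4 PPARα-deficient hearts. After LPS it was 57.6, 67.7, 75.1 and 72.2 CPM in Ppara-flox and 110, 112, 176 and 201 CPM in PPARα-deficient hearts. Every PPARα-deficient heart was thus above every Ppara-flox heart given the same treatment. LPS lowered Nppa from 130 ± 27.0 to 68.1 ± 7.67 CPM in Ppara-flox hearts, a log2 fold change of -0.93 ± 0.21 (n = 4 per group, edgeR adjusted p = 0.00222), with no overlap, as for 18.4% of all genes in the lower direction. In the PPARα-deficient mice it lowered Nppa from 255 ± 62.7 to 150 ± 45.9 CPM, a log2 fold change of -0.77 ± 0.21 (edgeR adjusted p = 0.00822). Here the groups overlapped, since the highest LPS library (201 CPM) was above the lowest PBS library (185 CPM). Levels of PPARα-deficient hearts after LPS (110 to 201 CPM) and Ppara-flox hearts after PBS (95.8 to 152 CPM) overlapped, a pair that was not tested.

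The genotype difference of Nppa was called after LPS, where it was 1.13 ± 0.21 on the log2 scale or 2.19-fold (95% interval 0.67 to 1.60, edgeR adjusted p = 0.00993). Among the 7 genes this was the 1 called higher, beside 0.385% of all genes called higher and 1.23% called in either direction in this comparison. After PBS the difference was 0.98 ± 0.21 or 1.97-fold (95% interval 0.51 to 1.44) and was not called (edgeR adjusted p = 0.0611). Groups that do not overlap with the deficient group higher made up 2.53% of genes after LPS and 1.57% after PBS. The PBS difference was called by DESeq2 (adjusted p = 0.000806) and by limma-voom (adjusted p = 0.0498). Leaving out 1 library at a time moved its adjusted p from 0.0268 (without PPARα-deficient PBS replicate 4) to 0.221. Within the PBS libraries numbered 957 to 971 the difference in mean log2 CPM was 1.01, and within those numbered 1069 to 1075 it was 0.92. The LPS difference lost its call (1.07, adjusted p = 0.0657) when the LPS libraries Ppara-flox replicate 4 and PPARα-deficient replicate 3 were both left out, and it kept it without either alone.

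Nppa is most abundant in atria, so atrial tissue in a sample bears on its level. The 8 atrial markers, mainly Kcnj3 and Stard10, summed to 39.7 to 57.7 CPM in Ppara-flox and 38.2 to 48.3 CPM in PPARα-deficient hearts after PBS. After LPS the sums were 22.3 to 34.0 and 21.5 to 28.4 CPM. Between genotypes these sums overlapped under both treatments, 0 of the 5 atrial markers that passed the filter were called by edgeR in either genotype comparison (1 had an unadjusted p under 0.05 after PBS, 0 after LPS), and 4 defining markers were near 0 throughout. The 1 was Mybphl, which was at 0 in all 4 Ppara-flox and at 0 to 0.161 CPM in the PPARα-deficient PBS libraries (unadjusted p = 0.0146, edgeR adjusted p = 0.626), and at 0 to 0.0741 and 0 to 0.317 CPM after LPS. Its means were thus higher in the same genotype as those of Nppa, at levels under 1 CPM. With LPS, Kcnj3 went from 25.2 ± 5.06 to 9.54 ± 3.58 CPM (Ppara-flox, adjusted p = 0.00106) and from 24.5 ± 3.82 to 6.94 ± 3 CPM (PPARα-deficient, adjusted p = 0.000124), by edgeR. The summed level of 5 cardiomyocyte genes also moved with LPS, between 44690 and 49722 CPM before and 25741 and 30492 CPM after it in the Ppara-flox genotype, and 40915 to 47896 CPM against 28791 to 32061 CPM in the other. Myh6 was the largest term of that sum, at 35609 ± 1627 CPM in Ppara-flox hearts after PBS. With LPS edgeR called 5 of the 5 lower in Ppara-flox and 3 in PPARα-deficient hearts, beside 19.1% and 18.3% of all genes. In PPARα-deficient hearts Tnnt2 was 5939 ± 585 CPM after PBS and 6063 ± 209 CPM after LPS. Between genotypes after LPS, the cardiomyocyte gene Tnnt2 was called higher in PPARα-deficient hearts (4817 ± 301 against 6063 ± 209 CPM, log2 fold change 0.33 ± 0.08, edgeR adjusted p = 0.0465). The ventricular gene Irx4 was higher there without overlap, beside 2.53% of all genes, but not called (0.67 ± 0.16, edgeR adjusted p = 0.0561). No other marker of these lists had an unadjusted p under 0.05 by edgeR. Of the 5 cardiomyocyte markers 4 values were positive and 1 negative, with a median of 0.09. Of the 4 ventricular markers 3 were positive and 1 negative, with a median of 0.08. All 6 macrophage markers had positive values in that comparison, 4 with an unadjusted p under 0.05 and 0 called by edgeR, and their sums of 103 to 129 and 120 to 161 CPM overlapped. Of 6 endothelial markers 5 had negative values there, 3 with an unadjusted p under 0.05 and 0 called by edgeR. Their sums of 766 to 864 CPM in Ppara-flox and 698 to 737 CPM in PPARα-deficient hearts did not overlap. The part of these markers in the Nppa results was not tested. In bulk tissue, fewer cells of a type and less RNA per cell cannot be told apart. The antisense gene Gm13054 overlaps Nppa, and it stood at 0.222 to 1.35 CPM over all libraries. Since the strand setting of the counting is not given in the sources used here, reads from both genes cannot be told apart.

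Nppb, the BNP precursor gene, was lower after LPS in Ppara-flox hearts and spread widely between mice after LPS. After PBS it was 205, 285, 148 and 149 CPM in Ppara-flox hearts and 179, 234, 235 and 235 CPM in PPARα-deficient hearts. After LPS it was 26.9, 29.3, 67.8 and 115 CPM in Ppara-flox and 60.6, 44.5, 230 and 102 CPM in PPARα-deficient hearts. Replicate 4 of Ppara-flox LPS and replicate 3 of PPARα-deficient LPS stood above the other libraries of their groups, and the latter lay within the PBS range. In Ppara-flox hearts LPS lowered Nppb from 197 ± 64.4 to 59.7 ± 41.3 CPM, a log2 fold change of -1.72 ± 0.48 or 3.29-fold lower (edgeR adjusted p = 0.00949), with no overlap. The share of all genes lower without overlap was 18.4% in that comparison. In PPARα-deficient hearts the means were 221 ± 27.9 and 109 ± 84.1 CPM, and the log2 fold change of -1.02 ± 0.48 (95% interval -2.05 to 0.02) was not called (edgeR adjusted p = 0.106). Without PPARα-deficient LPS replicate 3 it was -1.68 (adjusted p = 0.00722), so that 1 library decided this call. Limma-voom called it with all libraries (-1.30, adjusted p = 0.0245).

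Nppb was not called between genotypes. Its log2 fold change was 0.17 ± 0.47 after PBS (95% interval -0.86 to 1.19, edgeR adjusted p = 1) and 0.87 ± 0.47 after LPS (95% interval -0.16 to 1.90, edgeR adjusted p = 0.654). These intervals include differences as large as that of Nppa. Without PPARα-deficient LPS replicate 3 the LPS value was 0.21, and without Ppara-flox LPS replicate 4 it was 1.40, so the value rests on single libraries. After PBS the libraries numbered 957 to 971 gave -0.24 and those numbered 1069 to 1075 gave 0.66.

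The ratio of both peptide transcripts was compared within each library. Per kb of exon, the ratio of Nppa to Nppb was 0.531, 0.478, 0.585 and 0.924 in Ppara-flox hearts after PBS, so Nppb was the higher in all 4. In PPARα-deficient hearts after PBS it was 1.14, 1.26, 1.09 and 0.710, with Nppa the higher in 3 of 4. After LPS the ratio ran from 0.567 to 2.08 in Ppara-flox hearts (median 1.47) and from 0.689 to 2.27 in PPARα-deficient hearts (median 1.71), and the lowest value in each was the library with the high Nppb described above. The ranges of the ratio overlapped between every pair of the 4 groups. No test was run on the ratio.

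**Figure D2:**
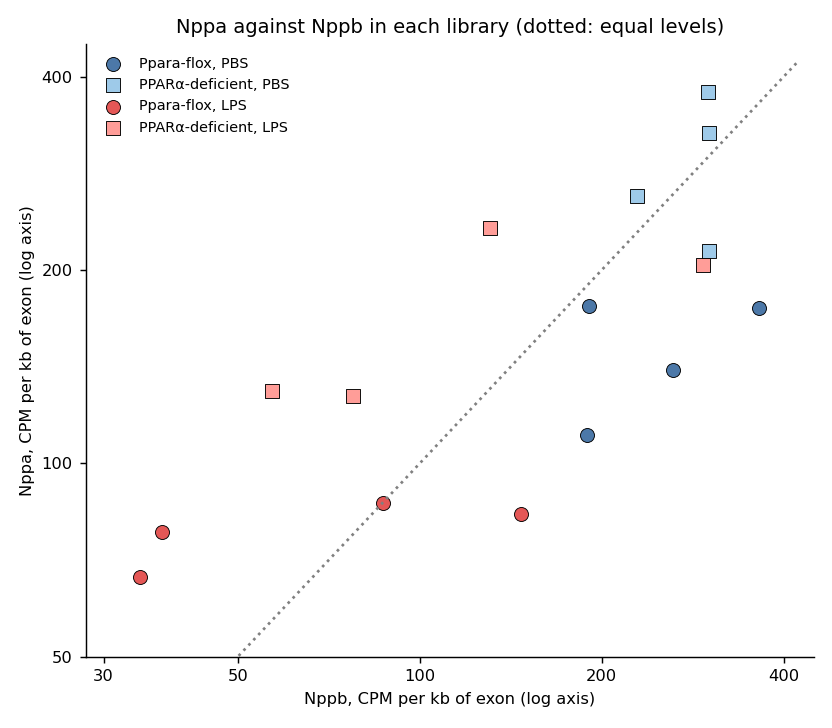
Nppa (vertical axis) against Nppb (horizontal axis) in each of the 16 libraries, both in CPM per kb of exon on log axes, with colour for treatment and shape for genotype. The dotted line marks equal levels: the 4 Ppara-flox PBS libraries lie below it at ratios of 0.478 to 0.924, and the LPS libraries spread along the Nppb axis.

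Corin and Furin, the proteases that activate the precursors, were not called in any comparison. Corin (ENSMUSG00000005220.10, chr5:72300025-72504473 on GRCm38, minus strand) was 225, 199, 252 and 269 CPM in Ppara-flox and 222, 208, 204 and 175 CPM in PPARα-deficient hearts after PBS. After LPS it was 217, 196, 253 and 246 CPM in Ppara-flox and 180, 190, 202 and 184 CPM in PPARα-deficient hearts. All 4 groups overlapped. The LPS effect on Corin was -0.05 ± 0.10 in Ppara-flox hearts (95% interval -0.28 to 0.17) and -0.10 ± 0.10 in PPARα-deficient hearts (-0.33 to 0.13). The genotype difference was -0.22 ± 0.10 after PBS (edgeR adjusted p = 0.886) and -0.27 ± 0.10 after LPS (95% interval -0.50 to -0.04, edgeR adjusted p = 0.383). Of the PBS difference, the libraries numbered 957 to 971 gave 0.02 and those numbered 1069 to 1075 gave -0.46.

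Furin (ENSMUSG00000030530.15, chr7:80388585-80405436 on GRCm38, minus strand) ranged from 128 to 188 CPM over all 16 libraries. Its group means were 167 ± 10.8 and 151 ± 15.7 CPM after PBS and 177 ± 11.9 and 170 ± 14.4 CPM after LPS, in Ppara-flox and PPARα-deficient hearts in turn. The LPS effect was 0.09 ± 0.09 in Ppara-flox hearts (95% interval -0.11 to 0.28, edgeR adjusted p = 0.489) and 0.17 ± 0.09 in PPARα-deficient hearts (-0.03 to 0.36, edgeR adjusted p = 0.154). For both proteases these intervals exclude the log2 changes that Nppa showed with LPS.

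The guanylyl cyclase receptors were modestly lower after LPS. Npr1 (ENSMUSG00000027931.12, chr3:90450591-90465866 on GRCm38, minus strand), the receptor of ANP and BNP, was 34.2, 36.8, 36.8 and 35.2 CPM in Ppara-flox hearts after PBS and 25.7, 28.6, 35.0 and 20.8 CPM after LPS. In PPARα-deficient hearts it was 32.6, 30, 30.6 and 30.6 CPM after PBS and 24.7, 24.0, 21.7 and 28.8 CPM after LPS. The PBS libraries lay close together, and the LPS libraries were more spread, with Ppara-flox LPS replicate 3 inside the PBS range. LPS lowered Npr1 in Ppara-flox hearts with a log2 fold change of -0.38 ± 0.12 (edgeR adjusted p = 0.0229). Without Ppara-flox LPS replicate 1 (adjusted p = 0.0634) or replicate 4 (-0.27, adjusted p = 0.0642) this call was lost. In PPARα-deficient hearts the value was -0.32 ± 0.12, not called (edgeR adjusted p = 0.0510) although the groups did not overlap, beside 18.4% of all genes lower without overlap, and 10 of 27 alternative settings called it. After PBS all 4 PPARα-deficient hearts were below all 4 Ppara-flox hearts, at 31.0 ± 1.16 against 35.7 ± 1.28 CPM (-0.21 ± 0.12, edgeR adjusted p = 1), beside 2.42% of all genes whose groups were lower without overlap.

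Npr2 (ENSMUSG00000028469.15, chr4:43631935-43651244 on GRCm38, plus strand), the receptor of C-type natriuretic peptide, fell with LPS in both genotypes. It was 58.4, 57.7, 63.8 and 53.3 CPM in Ppara-flox hearts after PBS and 47.9, 44.4, 51.0 and 44.0 CPM after LPS. In PPARα-deficient hearts it was 62.6, 55.6, 57.3 and 53.0 CPM after PBS and 50.5, 43.0, 42.9 and 49.9 CPM after LPS. No LPS library reached a PBS library of its genotype, beside 18.4% of all genes lower without overlap in each genotype. The log2 fold change was -0.32 ± 0.09 in Ppara-flox hearts (1.24-fold lower, edgeR adjusted p = 0.00766) and -0.29 ± 0.09 in PPARα-deficient hearts (1.23-fold lower, edgeR adjusted p = 0.0123). Between genotypes the differences were -0.03 ± 0.09 after PBS and -0.01 ± 0.09 after LPS, with 95% intervals of -0.22 to 0.16 and -0.19 to 0.18. Its ligand gene Nppc and the gene of the competing Npr3 ligand osteocrin, Ostn, were at most 0.172 and 0.0574 CPM, and 0 of these 2 genes passed the filter.

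Npr3 (ENSMUSG00000022206.7, chr15:11839896-11907287 on GRCm38, minus strand), the clearance receptor, had the lowest level per kb of the 7 in every group. It was 13.0, 9.12, 10.9 and 9.55 CPM in Ppara-flox hearts after PBS and 5.72, 6.50, 8.71 and 4.94 CPM after LPS. In PPARα-deficient hearts it was 2.21, 10.6, 11.5 and 10.3 CPM after PBS and 5.79, 5.49, 3.93 and 6.04 CPM after LPS. Replicate 1 of the PPARα-deficient PBS group stood below every other library, while the other 3 lay above all LPS libraries of that genotype. The LPS effect was -0.72 ± 0.35 in Ppara-flox hearts (95% interval -1.48 to 0.03, edgeR adjusted p = 0.113) and -0.70 ± 0.35 in PPARα-deficient hearts (-1.46 to 0.05, edgeR adjusted p = 0.126). Without that library edgeR called both lower, at -0.72 (adjusted p = 0.00521) and -1.02 (adjusted p = 0.000747). That library is in neither Ppara-flox group and enters their comparison through the spread that the fit shares between groups. The Ppara-flox groups did not overlap, beside 18.4% of all genes lower without overlap. Fitted to the 8 libraries compared, the Ppara-flox effect was called (-0.73, edgeR adjusted p = 0.0127). Per kb, Npr3 was a median of 0.145 of the Npr1 level in Ppara-flox and 0.176 in PPARα-deficient hearts after PBS, and 0.118 and 0.112 after LPS.

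Natriuretic peptide receptors are also made by vascular, endocardial and stromal cells, so the levels of those cells' markers are given beside them. The summed level of 7 pericyte and smooth muscle markers was 1122 to 1220 CPM over the PBS hearts and 525 to 660 CPM over the LPS hearts. The 6 endothelial markers summed to 806 to 991 CPM after PBS and 698 to 864 CPM after LPS. Their LPS sums did not overlap between genotypes, at 766 to 864 CPM in Ppara-flox and 698 to 737 CPM in PPARα-deficient hearts. The 5 endocardial markers other than Npr3, led by Vwf, summed to 60.2 to 83.4 CPM after PBS and 31.2 to 79.9 CPM after LPS, with Hapln1 under 1 CPM throughout. The 6 fibroblast markers summed to 579 to 659 CPM after PBS and 527 to 702 CPM after LPS. The largest term of that sum is Dcn, which rose with LPS (0.50 ± 0.10 and 0.59 ± 0.10), while 4 of the 6 were called lower in each genotype, among them Lum (-1.44 ± 0.17 and -1.47 ± 0.17) and Col1a2 (-0.96 ± 0.14 and -0.85 ± 0.14). The median of the 6 was -0.83 in Ppara-flox and -0.58 in PPARα-deficient hearts, against 0.01 for all genes tested. Of all genes 19.1% and 18.3% were called lower. The part of these markers in the receptor results was not tested.

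Over the 7 genes, LPS lowered 4 in Ppara-flox hearts (Nppa, Nppb, Npr1 and Npr2) and raised 0, beside 39.3% of all genes called, 19.1% lower and 20.2% higher. In PPARα-deficient hearts it lowered 2 (Nppa and Npr2) and raised 0, beside 37.7% of all genes called, 18.3% lower and 19.4% higher. Unadjusted p-values under 0.05 were found for 4 of the 7 in each genotype. Limma-voom called 4 in each, whereas DESeq2 called 4 and 3. Between genotypes after PBS edgeR called 0 of 7, beside 0.433% of all genes, 2 had an unadjusted p under 0.05 (Nppa and Corin), and DESeq2 and limma-voom called 1 each (Nppa). LPS comparisons within each genotype share no libraries, but each shares libraries with both genotype comparisons.

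The difference between the LPS effects of the 2 genotypes was tested as an interaction. It was 0.16 ± 0.30 for Nppa (95% interval -0.49 to 0.81) and 0.70 ± 0.67 for Nppb (-0.75 to 2.16). The Nppb value was 0.04 without PPARα-deficient LPS replicate 3 and 1.24 without Ppara-flox LPS replicate 4. For the other 5 genes it lay between -0.05 and 0.08. By edgeR 0 of the 7 were called, 0 had an unadjusted p under 0.05, and DESeq2 and limma-voom called 0 each, beside 0% of all genes called by edgeR. Over all genes 1075 had an unadjusted p under 0.05, and DESeq2 called 55. The Nppb response was therefore not shown to differ between genotypes, although it was called in Ppara-flox hearts alone.

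**Figure D3:**
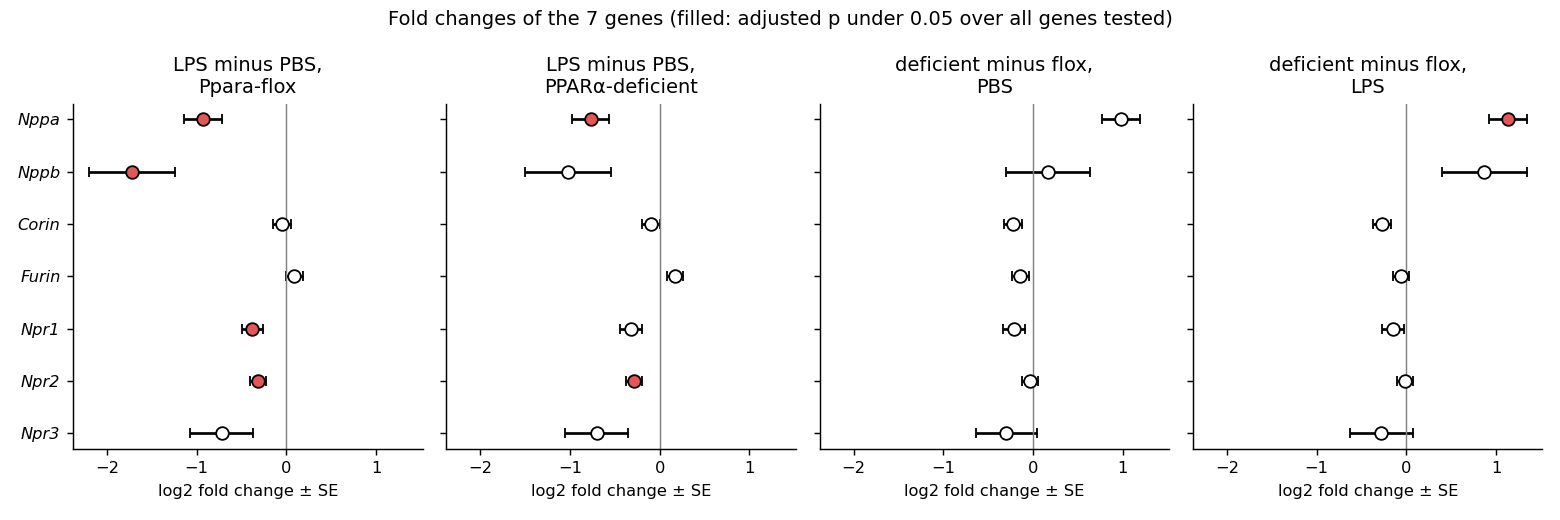
Log2 fold change of each of the 7 genes (vertical axis) in the 4 comparisons between groups (panels), with SE as whiskers and filled points for an adjusted p under 0.05 over all genes tested. LPS values are at or below 0 for all but Furin, and Nppa alone is filled between genotypes, at 1.13 after LPS.

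The genes that act before and after the receptors were described by lists. Counts called with LPS in these lists stand beside 39.3% of all genes in Ppara-flox and 37.7% in PPARα-deficient hearts. Of all genes 19.1% and 18.3% were lower and 20.2% and 19.4% higher. The same shares apply to the transcription factors, stress genes and neighbours below. The other proprotein convertases include Pcsk6 (PACE4), which is known to activate corin. Pcsk6 fell from 83.1 ± 2.88 to 9.71 ± 0.798 CPM in Ppara-flox hearts (-3.10 ± 0.11, edgeR adjusted p = 2.54e-11). In PPARα-deficient hearts it fell from 74.8 ± 8.17 to 7.94 ± 1.26 CPM (-3.24 ± 0.11, edgeR adjusted p = 1.44e-11). No LPS library was above 10.9 CPM and no PBS library below 63.0 CPM, while the Corin ranges with and without LPS overlapped. Pcsk5 fell as well (-0.81 ± 0.24 and -0.79 ± 0.24), Pcsk7 was not called, and the list therefore had 2 of 3 lower in each genotype. The list's median log2 change was -0.81 and -0.79, against 0.01 for all genes tested in both. The count fell to 1 of 3 without Ppara-flox PBS replicate 2 in that genotype, and in PPARα-deficient hearts without PBS replicate 2 or LPS replicate 3.

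Of the peptidases that degrade natriuretic peptides, 2 of 3 fell in each genotype. Mme (neprilysin, a degrading enzyme) fell from 7.80 ± 1.52 to 1.54 ± 0.388 CPM in the Ppara-flox (-2.34 ± 0.29, edgeR adjusted p = 6.8e-06) and from 5.04 ± 1.24 to 1.14 ± 0.475 CPM in the PPARα-deficient genotype (-2.15 ± 0.29). Dpp4, which trims BNP, fell by 2.80 and 1.8 on the log2 scale, from 2.68 ± 0.544 and 2.22 ± 0.233 CPM after PBS. Ide, the insulin-degrading enzyme, was not called (-0.43 ± 0.23 and -0.30 ± 0.23). The list medians were -2.34 and -1.8, against 0.01 for all genes.

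The guanylyl cyclase that nitric oxide activates, the other source of cGMP, fell in all 3 listed subunits in Ppara-flox hearts and in 2 of 3 in PPARα-deficient hearts. Gucy1a1 went from 16.2 ± 2.27 to 8.14 ± 0.930 CPM (-0.99 ± 0.15) and from 16 ± 2.33 to 7.37 ± 1.17 CPM (-1.11 ± 0.15). Gucy1b1 fell by 0.79 and 0.85 on the log2 scale. Gucy1a2 was low at 0.354 ± 0.115 CPM in Ppara-flox hearts after PBS and was called there (-2.11 ± 0.75, edgeR adjusted p = 0.0347), but not in PPARα-deficient hearts (-1.93 ± 0.75, edgeR adjusted p = 0.0513). List medians were -0.99 and -1.11. Log2 changes of Npr1 and Npr2 were between -0.38 and -0.29.

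Among 7 genes of cGMP-dependent kinases and their effectors, 6 passed the filter and Trpc6 did not. Prkg1, the main cGMP-dependent kinase of heart and vessels, was not called (0.23 ± 0.18 and 0.21 ± 0.18). Vasp, a substrate of that kinase, rose from 35.5 ± 4.6 to 62.5 ± 3.62 CPM in Ppara-flox mice (0.81 ± 0.09) and from 39.5 ± 2.18 to 57.5 ± 3.98 CPM in PPARα-deficient mice (0.54 ± 0.09). Pln (phospholamban, which restrains the calcium pump of the sarcoplasmic reticulum) fell by 1.11 and 0.70 on the log2 scale, and its genotype difference after LPS (0.47 ± 0.11) was not called (edgeR adjusted p = 0.0566). In that comparison 1 gene of this list was called higher with RLE factors, upper-quartile factors, DESeq2, limma-voom and the filter of at least 1 CPM in 8 libraries. Mrvi1, the present Irag1, which links the kinase to calcium release in smooth muscle, fell by 0.97 and 1.03. The list thus had 1 higher and 2 lower in each genotype, with medians of 0.45 and -0.24. Prkg2, at most 0.373 CPM in any library, had values of 0.67 ± 1.53 and -2.05 ± 1.54, neither of them called. Every other tested gene of the list had the same sign in both genotypes, so the medians differ in sign through Prkg2.

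The phosphodiesterases break cGMP down, and 9 of 9 passed the filter. Pde5a, the cGMP-specific enzyme, fell from 4.03 ± 0.693 to 1.87 ± 0.298 CPM in Ppara-flox mice (-1.10 ± 0.22) and from 4.08 ± 0.473 to 1.39 ± 0.431 CPM in PPARα-deficient mice (-1.55 ± 0.23). Pde1b rose by 0.75 and 0.62 on the log2 scale. Pde2a was called lower in Ppara-flox hearts (-0.58 ± 0.20), and Pde3a (-0.33 ± 0.12) and Pde3b (-0.71 ± 0.26) in PPARα-deficient hearts. In all, 1 was higher and 2 were lower in Ppara-flox and 1 was higher and 3 were lower in PPARα-deficient hearts, with a median of -0.35 in each (0.01 over all genes), beside 39.3% and 37.7% of all genes called. In PPARα-deficient hearts 1 of the 9 was called without PBS replicate 1 or PBS replicate 2, and 2 without LPS replicate 2 or LPS replicate 4.

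Pde3a, the cGMP-inhibited phosphodiesterase of cardiomyocytes, was the 1 gene of these pathway lists called between genotypes. After LPS it was 103, 104, 124 and 111 CPM in Ppara-flox and 77.9, 64.2, 68.4 and 62.8 CPM in PPARα-deficient hearts (-0.69 ± 0.12, edgeR adjusted p = 0.00452). After PBS it was 105 ± 14.6 and 86.1 ± 12.5 CPM, and the groups overlapped (-0.28 ± 0.12, edgeR adjusted p = 0.780). The difference between both genotype effects was -0.41 ± 0.17 and not called. Over the 40 tested genes of the pathway lists, edgeR called 1 between genotypes after LPS (10 at an unadjusted p under 0.05, DESeq2 4, limma-voom 3). After PBS it called 0 (4 at an unadjusted p under 0.05, DESeq2 0, limma-voom 0), and 0 as an interaction (6 at an unadjusted p under 0.05, DESeq2 1, limma-voom 0). Of all 18713 genes, edgeR called 231 or 1.23% after LPS (1709 at an unadjusted p under 0.05, DESeq2 444, limma-voom 239). After PBS it called 81 or 0.433% (1042, 183 and 83 in the same order), and as an interaction 0 (1075, 55 and 0).

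**Figure D4:**
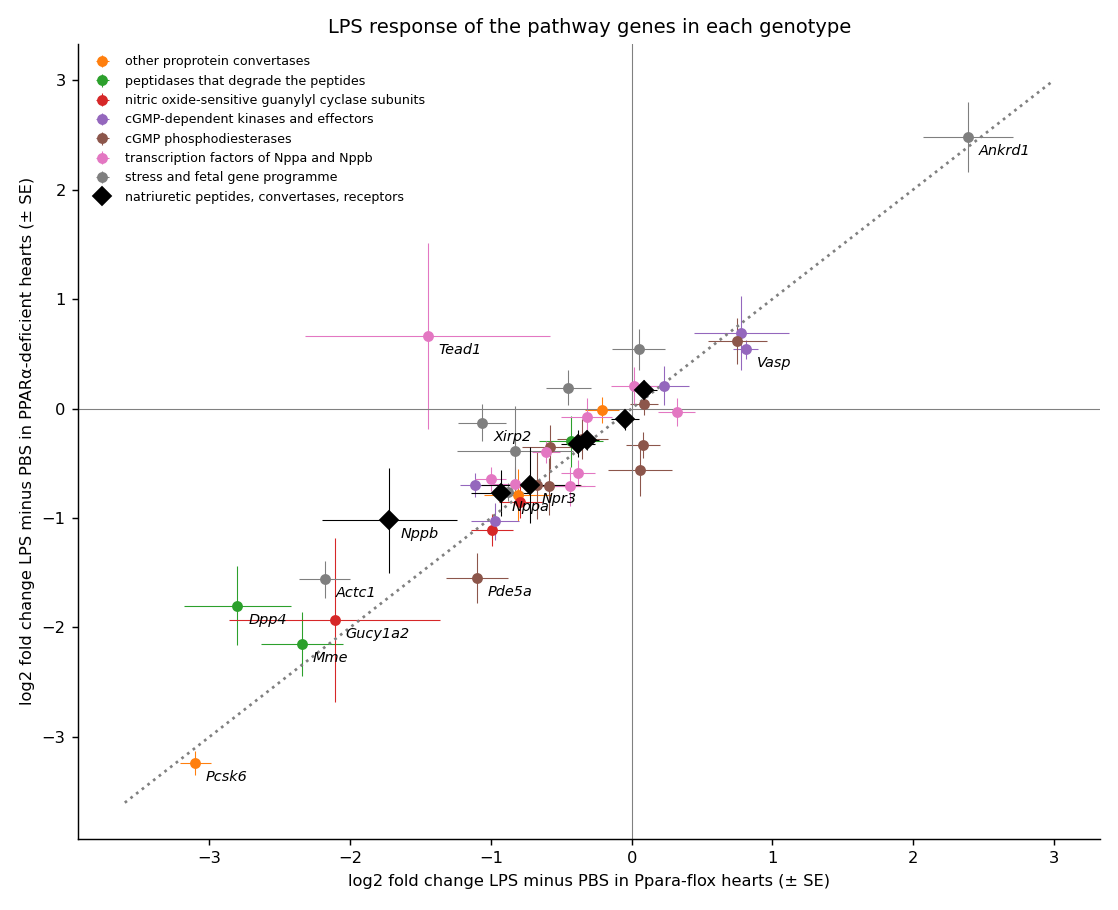
Log2 fold change with LPS in Ppara-flox hearts (horizontal axis) against PPARα-deficient hearts (vertical axis) for the 7 genes (black diamonds) and the listed pathway genes (coloured points), with SE as lines, equal values dotted, and Prkg2 left out for its wide error. Pcsk6 lies at -3.10 and -3.24, Ankrd1 at 2.39 and 2.48, and most of the others between.

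Transcription factors known to act on Nppa and Nppb were lower after LPS in part. Gata4, which binds the GATA motif, fell from 97.9 ± 14.7 to 48.8 ± 2.77 CPM in Ppara-flox mice (edgeR adjusted p = 2.81e-06) and from 96.9 ± 4.34 to 62.3 ± 9.05 CPM in PPARα-deficient mice (log2 change -0.64 ± 0.11). Srf fell by 0.83 and 0.69, Nkx2-5 by 0.61 and 0.40 and Mef2a by 0.38 and 0.59 on the log2 scale. Mef2c was called in PPARα-deficient hearts alone (-0.71 ± 0.18 against -0.44 ± 0.18, interaction -0.28 ± 0.25, not called). Of 9 factors, 4 and 5 were called lower and 0 higher, with medians of -0.44 and -0.40. Over all genes 19.1% and 18.3% were called lower, and the median was 0.01 in both genotypes. Tead1, which binds the M-CAT element, ranged from 6.7 to 147 CPM over the 16 libraries and was not called in any comparison. Between genotypes 0 of the 9 were called, and the Gata4 difference after LPS was 0.35 ± 0.11 (edgeR adjusted p = 0.218).

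Genes of the cardiac stress and fetal programme, in which Nppa and Nppb are counted, did not move as a block. Ankrd1, a stress-responsive ankyrin repeat gene, was 489 to 675 CPM in Ppara-flox hearts after PBS and 1751, 2719, 2308 and 4636 CPM after LPS (2.39 ± 0.32, edgeR adjusted p = 1.68e-05). In PPARα-deficient hearts it was 550 to 955 CPM after PBS and 2608, 2419, 6121 and 3514 CPM after LPS (2.48 ± 0.32). It thus rose while Nppa fell. Its highest LPS library in each genotype was the one with the highest Nppb in Ppara-flox (replicate 4) and in PPARα-deficient hearts (replicate 3). Actc1 fell by 2.18 and 1.56 on the log2 scale, and Acta1 was not called (-0.83 ± 0.41 and -0.39 ± 0.41). Myh6, the adult myosin gene rather than a fetal one, fell by 0.88 and 0.76 and is among the genes counted as lower below. Myh7 (-0.45 ± 0.16) and Xirp2 (-1.06 ± 0.17) were called lower in Ppara-flox hearts, and Xirp1 higher in PPARα-deficient hearts (0.54 ± 0.19). Of 7 genes, 1 was higher and 4 lower in Ppara-flox hearts and 2 were higher and 2 lower in PPARα-deficient hearts, the latter 1 higher without the 2 LPS libraries of highest Nppb. Between genotypes after LPS edgeR called 0 of the 7 (3 at an unadjusted p under 0.05), while DESeq2 called 2 higher and limma-voom 1; Xirp2 stood at 0.69 ± 0.17 and Myh7 at 0.69 ± 0.16.

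The genes reported here around the Nppa and Nppb locus, not all of those within 100 kb, changed with LPS in part and were not called between genotypes. Mfn2, 96 kb before the Nppa start, fell with LPS from 818 ± 59.5 to 525 ± 46.6 CPM in Ppara-flox mice (-0.64 ± 0.08) and from 816 ± 78.2 to 486 ± 24.8 CPM in PPARα-deficient mice (-0.75 ± 0.08). Plod1, 64 kb before it, fell by 0.80 and 0.54 on the log2 scale. Agtrap, 87.3 kb after it, rose in Ppara-flox hearts (0.22 ± 0.08, edgeR adjusted p = 0.0477). Clcn6, which starts 38.1 kb after it, and 2510039O18Rik, 59.8 kb before it, were not called in any comparison. By edgeR 0 of these neighbours were called between genotypes (1 at an unadjusted p under 0.05 after PBS, 0 after LPS), where their log2 values lay between -0.18 and 0.25. Draxin, at most 0.204 CPM in any library, was not called in any comparison and is left out of that range and of the figure.

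**Figure D5:**
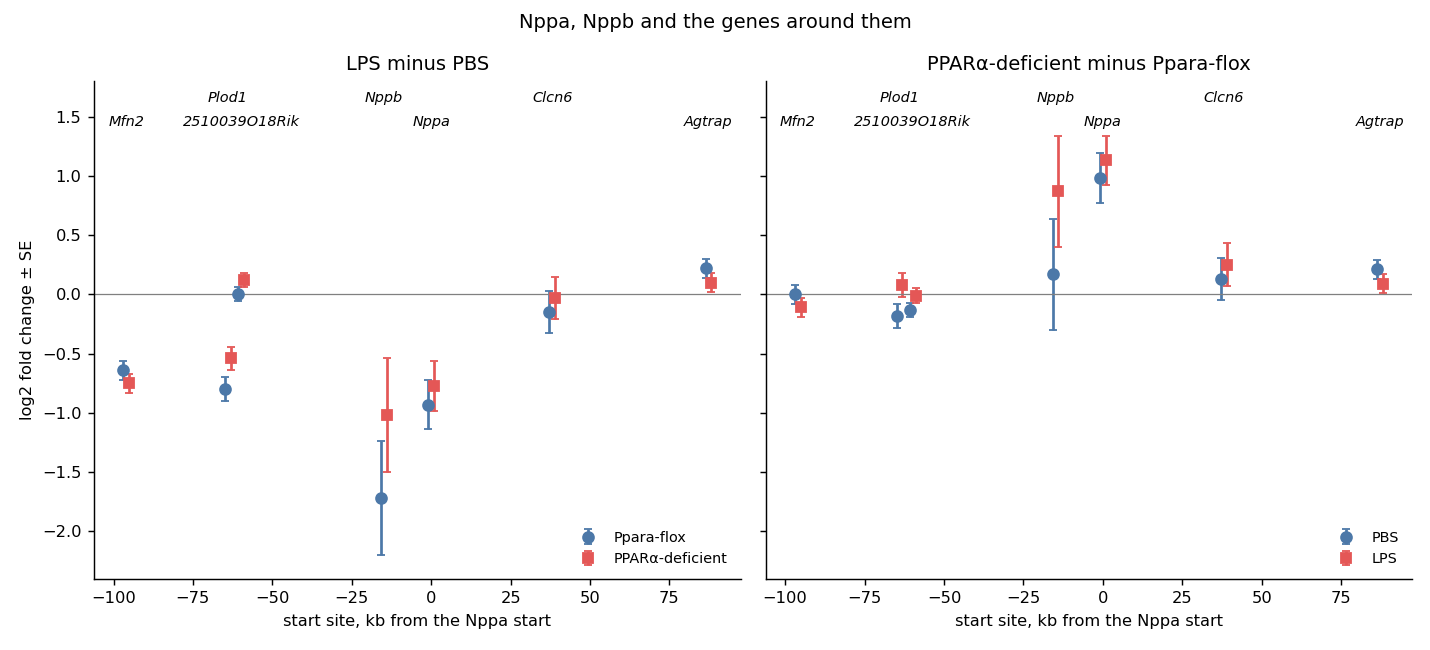
Log2 fold change with SE of Nppa, Nppb and genes around them against the distance of their start sites from the Nppa start in kb, points set slightly apart for legibility, for LPS minus PBS (left) and PPARα-deficient minus Ppara-flox (right). In the right panel Nppa lies at 0.98 and 1.13 while the other genes shown besides Nppb lie between -0.18 and 0.25.

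Genes whose level followed each of the 7 most closely were named by Pearson's r of log2 CPM over the 16 libraries, which share group and depth differences. For Nppa these were Gnb3 (r = 0.91), Pdhb (0.89) and Pigp (0.88), and for Nppb they were Gipc3 (0.95), Nexn (0.95) and Slc16a1 (0.93). Npr1 was closest to Lrp5 (0.94), Pcp4l1 (0.93) and Sox18 (0.92), Npr2 to Ppt2, Amacr and Ift172 (0.95 each) and Npr3 to Decr2 (0.90). Corin was closest to Dsg2 (0.88) and Furin to Zfp385a (0.82). As deviations from the 4 group means, where group differences are removed, the closest were Optn (0.85) for Nppa, Fxyd6 (0.92) for Nppb, Rabgap1l (0.88) for Corin and Dhx38 (0.87) for Furin. For the receptors they were Slc26a10 (0.97) for Npr1, Pwwp3a (0.87) for Npr2 and Pcdhga10 (0.95) for Npr3. Both Npr3 values, 0.90 and 0.95, include PPARα-deficient PBS replicate 1, where Npr3 was 2.21 CPM against 10.3 to 11.5 CPM in the rest of its group. As deviations from the group means, r was 0.55 for Nppa with Nppb, and it was 0.76 for Nppb with Ankrd1, a gene outside the 7. With group differences kept, over the 16 libraries, r was 0.74 for Nppa with Nppb and -0.51 for Nppb with Ankrd1. These values describe the libraries and were not tested.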

How the data were processed

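RNA-seq of heart tissue from 16 mice (4 groups of 4) was used. The authors deposited 1 table of estimated counts per library, whole numbers per gene symbol and not scaled between libraries, per the file headers and values. The submitters' processing notes list, without roles, DESeq2 1.30.1, StringTie 1.3.3b, HISAT, fastp 0.23.2 and the build GRCm38. The counting tool, annotation and strand setting are not given in the sources used here, and the labels name a stranded kit. Low values pile up at multiples of 4 (4 in 12837 entries, 3 in 5293, 5 in 7268), so depth may be nearer to each total divided by 4, 16392284 to 18859006. The label text on extraction speaks of islets, while tissue and source name the heart.

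Of 55421 lines, 27 with symbols turned into dates were left out (0.0644% to 0.0861% of counts) and 116 repeats summed. Genes were kept by filterByExpr (18713), scaled by TMM and fitted with glmQLFit of edgeR 4.0.16, with a mean for each of the 4 groups of 16 libraries, leaving 12 residual degrees of freedom. Tests were glmQLFTest with Benjamini-Hochberg adjustment over all genes, called at an adjusted p under 0.05. The SE is the log2 fold change divided by the root of F, and 95% intervals use 12 degrees of freedom. The test also draws on the spread of other genes, so the intervals are somewhat wider than its own. An interval can thus include 0 at an unadjusted p under 0.05, as for Nppb with LPS in PPARα-deficient hearts. CPM used TMM library sizes, and CPM per kb the union of GENCODE vM21 exons. Other tools were matplotlib 3.10.9, numpy 2.4.6, pandas 2.3.3, Python 3.11.15, DESeq2 1.42.0, limma 3.58.1 and R 4.3.3. The fit was tested on simulated data.

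The 7 genes and all lists were chosen with earlier results of these data known. The rule for named genes took all 7, at most the 4 genes of smallest adjusted p per pathway list and comparison, the 2 highest and any absent markers of each list, neighbours of Nppa and Nppb within 100 kb (not all are reported here), and for each of the 7 the closest genes by correlation among ordinary symbols averaging at least 2 on the log2 CPM scale. Prkg1, Prkg2, Trpc6, Tead1, Lum, Col1a2, Irx4, Tnnt2 and Mybphl were named outside it, after their values were seen. Alternatives were other scaling factors, DESeq2, limma-voom, 2 filters, a fit to the 8 libraries compared, counts divided by 4, a block for replicate number, and 16 fits without 1 library. A block for the PBS number series and a fit without the LPS libraries Ppara-flox 4 and PPARα-deficient 3 were chosen after seeing the data. Replicate numbers did not pair the libraries: deviations of 24 same-numbered pairs correlated at -0.0658 to 0.0746.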

Additional observations from a re-analysis of the deposited data

Results flagged for a closer look

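In each of the 28 groups of 4 libraries (7 genes in 4 groups), the most extreme library was compared with the spread of its group by Dixon's criterion, which chance exceeds in about 1 of 20 groups. It was exceeded 2 times, both in PPARα-deficient PBS replicate 1. Nppb stood there at 179 CPM against 234, 235 and 235 CPM in the other 3 mice. Npr3 stood there at 2.21 CPM against 10.6, 11.5 and 10.3 CPM. The level of Npr1 in the same library was 32.6 CPM, the highest of its group. The cause was not tested.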

How the results depend on the processing

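Over 27 alternatives, 881 of 938 values of the 35 gene results kept their direction and side of the threshold, 5 lost and 22 gained a call, and 30, all of them uncalled, changed sign. The LPS calls of Nppa and Npr2 in both genotypes and of Nppb in Ppara-flox hearts held under all of them. The cause of the changes below was not tested.

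In PPARα-deficient hearts limma-voom called 4 of the 7 genes with LPS. Between genotypes after PBS, DESeq2 called 183 genes in all (81 by edgeR), and DESeq2, limma-voom and the filter of at least 1 CPM in 8 libraries each called 1 of the 7, Nppa; leaving out single libraries gave 0 to 1. After LPS, DESeq2 called 444 genes and the fit to the 8 libraries compared 139 (231 by edgeR), and without both LPS libraries of high Nppb 0 of the 7 were called, against 1 to 1 without single libraries. As an interaction, DESeq2 called 55 genes, the stricter filter 4 and the fit without both libraries 4, with 0 to 4 without single libraries.

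Npr2 after LPS differed between genotypes by 0.003 with upper-quartile factors and 0.002 with the stricter filter, and the Npr1 interaction was -0.003 without both libraries. Without single libraries, the LPS effect on Corin in Ppara-flox hearts ran from -0.13 to 0.02. The genotype difference after PBS ran from -0.08 to 0.01 for Npr2 and from -0.47 to 0.02 for Npr3, and after LPS from -0.05 to 0.04 for Npr2. The interaction ran from -0.02 to 0.30 for Nppa, 0.04 to 1.24 for Nppb, -0.12 to 0.03 for Corin, -0.05 to 0.20 for Npr1, -0.02 to 0.07 for Npr2 and -0.30 to 0.20 for Npr3.

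With the replicate number as a block, 4, 2, 0, 1 and 0 of the 7 genes were called in the LPS comparisons (Ppara-flox, PPARα-deficient), the genotype comparisons (PBS, LPS) and the interaction, and no call on them changed. Over all genes the block gave 7162, 6859, 72, 187 and 0 calls. The numbers pair no libraries by the labels or by the correlation of deviations. With 4 libraries a group, the interval printed for an uncalled gene gives roughly the differences that the data allow, and it is somewhat wider than that of the test. Npr3 had the widest error of the receptors and the lowest counts (161 to 917 estimated counts). Its LPS effects were called only in fits that left out PPARα-deficient PBS replicate 1, which is in neither Ppara-flox group.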
